A study of Mus musculus with 92 samples.

Results

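Imprinted genes are transcribed mainly from the copy inherited from 1 parent, and 10 of them were looked for in quadriceps muscle: H19, Igf2, Meg3, Rian, Mirg, Peg3, Grb10, Cdkn1c, Snrpn and Plagl1. They were taken by gene name from the deposited table, from a list drawn up with earlier results of these data known. The table held 9 of the 10 among its 13441 genes, and Mirg was not analysed here. RNA came from the quadriceps of 92 DOz mice, an outbred stock in which each animal inherits its own mixture of founder alleles. All animals belonged to 1 group, fed standard rodent chow for their whole life and about 18 to 20 weeks old, with no treatment, engineered allele or second diet. Polyadenylated RNA was sequenced after library preparation with the KAPA mRNA HyperPrep kit (500 ng input), and each library is 1 animal. The labels do not give the sex, but all 4 Y-linked genes in the table were detected in every animal, the lowest value of Ddx3y being 4.58. With 1 group there was no contrast between treatments, so the levels, their spread and their covariation from animal to animal are reported.

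Imprinted genes lie in clusters, each governed by an imprinting control region that carries DNA methylation on only 1 parental copy. H19, a noncoding RNA expressed from the maternal copy, and Igf2, a growth factor expressed from the paternal copy, share enhancers in 1 such cluster. Meg3, Rian and Mirg are maternally expressed noncoding RNAs that follow each other on 1 strand and carry small nucleolar RNAs and microRNAs. Peg3 (a paternally expressed zinc finger protein), Plagl1 (a zinc finger transcription factor), Cdkn1c (a cell cycle inhibitor) and Grb10 (an adaptor that dampens insulin and IGF1 receptor signalling) are growth regulators, and Snrpn encodes a small nuclear ribonucleoprotein. Several of these genes are known for high expression in fetal and neonatal muscle and low expression after weaning.

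Meg3 and Rian gave the closest covariation of any pair of these genes, and Peg3 covaried with both of its neighbours, so their start regions are shown. RefSeq sequences of build GRCm38.p6 are written 5′ to 3′ on the transcribed strand. For Meg3 and Rian they are windows of 300 bases that end shortly after the transcript start. Capitals mark CG dinucleotides and the 8-base cAMP response element TGACGTCA.
Meg3 promoter (chr12:109540746-109541045, plus strand): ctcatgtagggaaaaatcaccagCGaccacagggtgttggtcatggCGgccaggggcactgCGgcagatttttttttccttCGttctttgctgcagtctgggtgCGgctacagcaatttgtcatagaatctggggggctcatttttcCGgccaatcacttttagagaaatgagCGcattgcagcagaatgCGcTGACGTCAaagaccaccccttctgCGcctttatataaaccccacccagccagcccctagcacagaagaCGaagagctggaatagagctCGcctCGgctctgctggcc
Rian promoter (chr12:109603695-109603994, plus strand): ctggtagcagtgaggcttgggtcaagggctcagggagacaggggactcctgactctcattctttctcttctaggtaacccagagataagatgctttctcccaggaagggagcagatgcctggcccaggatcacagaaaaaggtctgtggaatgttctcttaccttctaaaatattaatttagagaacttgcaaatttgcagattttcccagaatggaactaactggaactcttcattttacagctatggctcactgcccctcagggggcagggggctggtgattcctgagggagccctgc
Peg3 to Usp29 (chr7:6730432-6730577, minus strand, the 146 bases between the divergent genes): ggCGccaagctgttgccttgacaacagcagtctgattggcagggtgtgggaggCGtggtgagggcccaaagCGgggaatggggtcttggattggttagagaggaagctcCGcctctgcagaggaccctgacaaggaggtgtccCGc
The Meg3 promoter held 1 match to TGACGTCA, a motif that reads the same on both strands and occurs in 1.79% of the 32851 mouse promoters of this length. It also held 13 CG dinucleotides, whereas the Rian window held 0 of either and the Peg3 to Usp29 stretch held 5 CG dinucleotides. Of all promoters, 94.6% held at least 1 CG, with a median of 7. These matches describe letters only and say nothing about binding or methylation in muscle.

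The members that are noncoding RNAs also span microRNA hairpins, which polyadenylated RNA libraries do not measure. Mature RefSeq sequences are given for 1 hairpin of each, with the seed (bases 2 to 8) in capitals.
mmu-miR-675-5p, in H19: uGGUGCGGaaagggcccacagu
mmu-miR-675-3p, in H19: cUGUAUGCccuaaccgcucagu
mmu-miR-770-5p, in Meg3: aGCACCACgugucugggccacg
mmu-miR-770-3p, in Meg3: cGUGGGCCugacguggagcugg
mmu-miR-370-5p, in Rian: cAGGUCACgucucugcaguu
mmu-miR-370-3p, in Rian: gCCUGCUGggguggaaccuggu
No seed was shared among these 6. H19 spanned 1 hairpin, Meg3 2 and Rian 3, and the span of Mirg, for which no expression was analysed, held 14 hairpins with 26 mature sequences.

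The table gives log2 expression on a per-million scale, and every level below is on that scale unless a length is named. Muscle markers led the table, as the label has it: Myh4, the fast glycolytic myosin heavy chain, had the highest mean of all genes at 15.90 ± 0.24 (SD, n = 92), and skeletal actin Acta1 was at 14.60 and muscle creatine kinase Ckm at 13.83. Animals are numbered in order of deposit, a number that only names them. Libraries 84 and 69 stood farthest from the others, with median root mean square log2 distances of 0.87 and 0.85 against a median of 0.66 over all libraries. Animal 84 had the lowest Myh4 (14.96) and the highest values of Myh3, the embryonic myosin (8.35), of Myog, a transcription factor of muscle differentiation (5.11), of Ncam1, a surface protein of denervated and regenerating fibres (5.71), and of the proliferation gene Mki67 (3.36). Its summed level of 8 macrophage markers was the highest at 8.47 (range 4.72 to 8.47, median 6.05), its 8 fibroblast markers summed to 11.05 (range 8.26 to 11.08), and its 7 satellite cell markers summed to 6.01, again the highest. Animal 69 was second for Myog (4.27) and Ncam1 (4.48) and had the lowest summed endothelial (7.23), mural (6.99), adipocyte (8.38) and Schwann cell markers (4.31). In bulk tissue, fewer cells of a type and less RNA per cell cannot be told apart. Results that rest on animals 69 and 84 are therefore given with all 92 and with the remaining 90, a comparison chosen after seeing the data.

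H19 had the highest level of the 9, also per length. Its level ran from 7.17 to 11.09, with a median of 8.76 and a mean of 8.74 ± 0.61, which ranked 202 among all 13441 genes. Igf2 ran from 3.56 to 7.82 (median 4.41, mean 4.46 ± 0.64). Most Igf2 values lay in a narrow band, and animals 84 and 69 stood 1.30 above the third, animal 23, with no value between. Cdkn1c, which lies in the neighbouring domain of the same chromosome, ran from 2.17 to 5.07 (median 3.27, mean 3.30 ± 0.48). Its highest value, in animal 23, was 0.79 above the next.

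On chromosome 12, Meg3 ran from 3.13 to 5.56 (median 4.10, mean 4.17 ± 0.49) and Rian from 1.77 to 4.60 (median 3.06, mean 3.10 ± 0.57). Both were spread evenly: the widest gap between successive animals was 0.39 for Meg3 and 0.27 for Rian. Peg3 ran from 2.65 to 7.58 (median 4.56, mean 4.53 ± 0.64), a 30.6-fold range with animal 84 1.13 above animal 69. Grb10 ran from 4.15 to 6.84 (median 5.05, mean 5.06 ± 0.43). Animal 84 was again alone at the top, 0.94 above the next. Snrpn ran only from 5.22 to 6.59 (median 5.68, mean 5.71 ± 0.24), a 2.58-fold range, and Plagl1, the weakest member, ran from -1.90 to 2.32 (median 0.24, mean 0.26 ± 0.82).

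Animal 84 held the highest value of 5 members and was in the top 3 for 7 of 9. Compared with the median animal its level was 10.6-fold for Igf2, 8.13-fold for Peg3, 5.03-fold for H19, 4.25-fold for Plagl1 and 3.44-fold for Grb10. Snrpn went the other way, at 0.79 of the median level and rank 89. Animal 69 showed the same order for fewer genes, with 9.28-fold for Igf2, 3.72-fold for Peg3 and 2.56-fold for H19, while its Grb10 (1.27-fold), Cdkn1c (1.01-fold) and Rian (0.849-fold) lay close to the median. Myog and Ncam1 ranked 1 in animal 84 and 2 in animal 69, and the summed macrophage markers ranked 1 and 4. Other embryonic and regeneration genes were less even, with Chrna1 and Runx1 at ranks 1 and 3, Myh3 at 1 and 12, Myh8 at 23 and 13, and Gadd45a at 34 and 2. The sum of that list ranked 1 in animal 84 and 11 in animal 69. The part of these markers in the result was not tested.

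**Figure D1:**
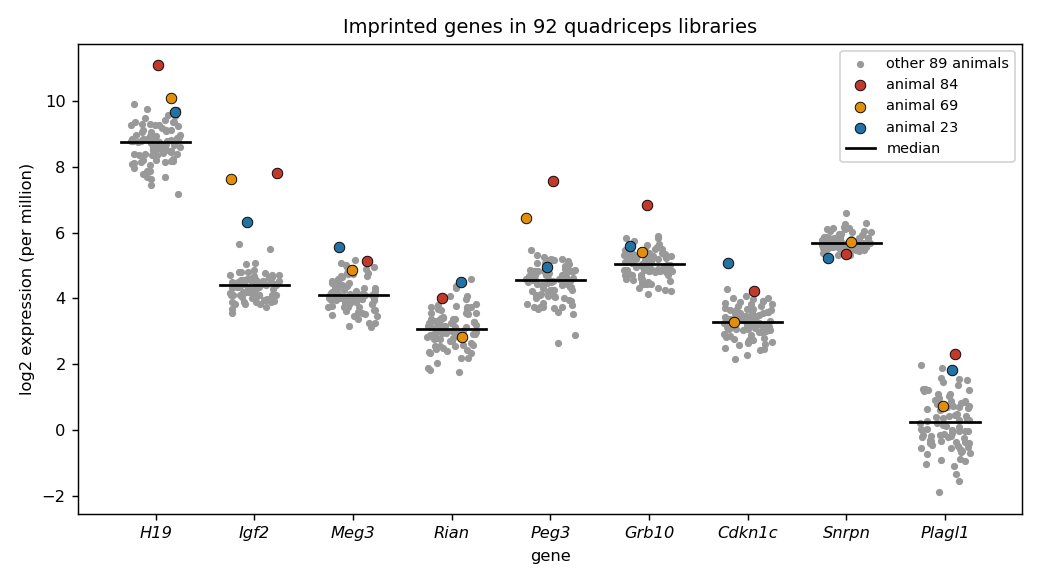
Log2 expression (per-million scale) of the 9 imprinted genes in each of 92 quadriceps libraries, with 1 point per animal, a black bar at the median and animals 84, 69 and 23 in colour (points are spread sideways only to separate them). Animals 84 and 69 stand above the rest for H19, Igf2 and Peg3, and no animal stands apart for Rian.

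Levels were divided by merged exon length to set genes side by side. Whether the deposited values already hold such a division is not given in the sources used here. The highest levels included long genes (Ttn, titin, at 13.90 and rank 9, and Neb, nebulin, at 12.66 and rank 22). They also included short ones (the troponin genes Tnnt3, at 13.97 and rank 8, and Tnni2, at 12.26 and rank 29). The ribosomal protein genes Rpl41 and Rps29, with longest transcripts of 0.695 and 0.461 kilobases, were at 6.60 (rank 1162) and 5.73 (rank 2129). The scaling itself was not tested. If the values were already per length, the order would be that of the levels themselves, with H19 (8.74) before Snrpn (5.71), Grb10 (5.06), Peg3 (4.53), Igf2 (4.46), Meg3 (4.17), Cdkn1c (3.30), Rian (3.10) and Plagl1 (0.26). After the division H19 was highest at a mean log2 of 7.44 per kilobase, then Snrpn (4.60), Cdkn1c (2.27), Igf2 (1.94), Grb10 (1.88), Peg3 (0.80), Meg3 (-0.01), Rian (-1.09) and Plagl1 (-2.71). H19 exceeded Snrpn in 92 of 92 animals, and Snrpn exceeded Cdkn1c in 92 of 92. Neighbours in the middle did not differ beyond their spread: Cdkn1c was above Igf2 by 0.33 ± 0.65 (SD of the difference, 68 of 92 animals) and Igf2 above Grb10 by 0.06 ± 0.66 (50 of 92). With the longest transcript in place of merged exons, Grb10 moved up to the third place (2.73), ahead of Cdkn1c (2.37) and Igf2 (2.22). Peg3 exceeded Meg3 by 0.81 ± 0.76 (78 of 92), a difference barely above its SD, and Meg3 exceeded Rian by 1.08 ± 0.34 (92 of 92), or by 0.22 with the longest transcript. Some of these sums rest on shared exons: 3596 exon bases of Igf2 lie on the same strand as the gene Gm49394, and 589 of Snrpn are shared with Gm38393, which is also in the table, so reads of each pair may be split in ways the files do not show.

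Most of these genes varied more between animals than genes of like level. The SD of each gene was set against a smooth trend of SD on mean level, and the log2 ratio was ranked among all genes. All 9 lay above the trend, against 49% of all genes, and 6 lay above the 90th percentile: H19 (98.1), Peg3 (97.4), Igf2 (97.3), Meg3 (93.5), Grb10 (93.1) and Rian (92). Cdkn1c was at the percentile 87.4, Plagl1 at 78.2 and Snrpn at 63.9. The spread of Igf2 came largely from animals 69 and 84, without which its SD was 0.41 instead of 0.64; that of Peg3 was 0.52 and that of H19 0.54 without them. By the median absolute deviation, which such animals hardly move, H19 stayed at percentile 98.0, Peg3 at 94.8, Meg3 at 92.5 and Grb10 at 92.2, whereas Igf2 was at 85.4, Rian at 86.6 and Snrpn at 47.9. Among 42 other imprinted genes in the table, 27 lay above the trend, with a median log2 ratio of 0.15 against 0.95 for the members and -0.01 for all genes.

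**Figure D2:**
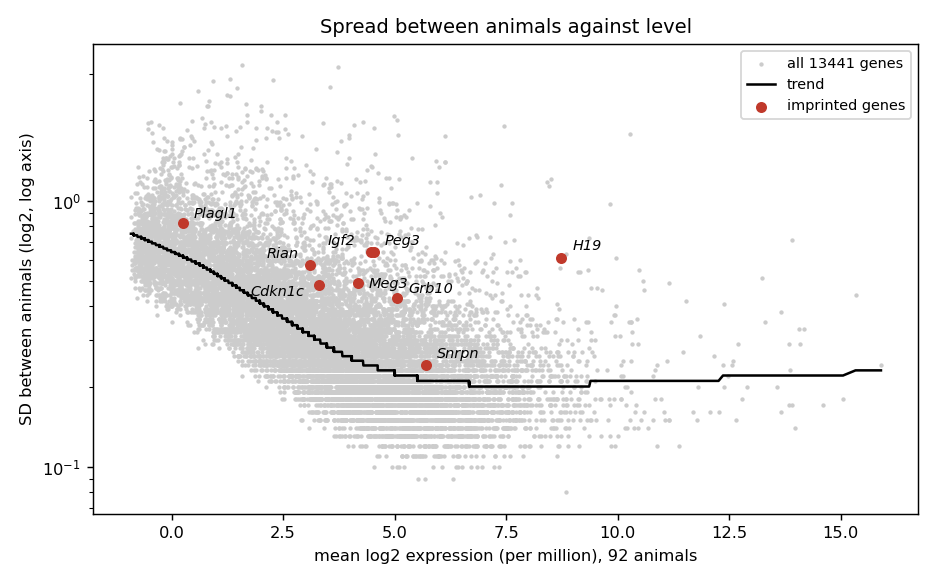
SD between animals (log2, logarithmic axis) against mean log2 expression (per-million scale) for all 13441 genes (grey), the trend (line) and the 9 imprinted genes (red). H19, Igf2 and Peg3 lie farthest above the trend, and Snrpn, with an SD of 0.24, lies close to it.

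Covariation was measured for all 36 pairs with Pearson's r and Spearman's rho over 92 animals, and both were tested two-sided by permuting the animals 100000 times, so that no p can be smaller than 1e-05. Each gene was also regressed on each member with limma, adjusting over all genes (Benjamini-Hochberg), and a pair was called where the adjusted p was under 0.05 in both directions of fit; the larger of the 2 is given. Of the 36 pairs, 30 had a positive r, and 7 were called, all positive. Over all genes, the share past that threshold was 9.1% on H19, 24.3% on Igf2, 0.789% on Meg3, 0.871% on Rian, 7.2% on Peg3, 7.5% on Grb10, 1.38% on Cdkn1c, 0.00744% on Snrpn and 9.23% on Plagl1. Unadjusted permutation p-values were under 0.05 for 17 pairs by r but for 7 by rho. The median r over pairs was 0.14 with all animals and 0.04 without animals 69 and 84.

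The 2 noncoding RNAs of chromosome 12 rose and fell together. Meg3 and Rian, 32.2 kilobases apart on the same strand, correlated with r = 0.809 (permutation p = 1e-05) and rho = 0.750 (permutation p = 1e-05), with a limma adjusted p of 7.51e-19. Leaving out the 2 animals most distant from the Meg3 median gave an r of 0.782 and leaving out animals 69 and 84 gave 0.822, and r lay between 0.442 and 0.908 in the 5 blocks of animals described below. An increase of 1 SD in Meg3 went with 0.46 ± 0.04 (SE) log2 units of Rian. Dlk1, the paternally expressed gene of the cluster, had an r of 0.17 with Meg3 and 0.16 with Rian and was called with neither (limma adjusted p = 0.431 and 0.472), at a low mean level of -0.41.

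H19 and Igf2, 72.6 kilobases apart and expressed from opposite parental copies, correlated with r = 0.565 (permutation p = 1e-05), while rho was 0.308 (permutation p = 0.00324) and the limma adjusted p was 5.08e-06. The r fell to 0.443 without the 2 animals most distant from the H19 median and to 0.373 without animals 69 and 84 (limma adjusted p = 0.0354), and it was positive in all 5 blocks (0.393 to 0.697). With the first 3 principal components as covariates the pair was not called (limma adjusted p = 0.302). Animals 84, 69 and 23 held the 3 highest Igf2 values and ranked 1, 2 and 6 for H19. Igf2 and Cdkn1c, 792 kilobases apart, had r = 0.357 (permutation p = 0.00117) and rho = 0.270 (permutation p = 0.00935), with a limma adjusted p of 0.0374. Without animal 23, which was highest for Cdkn1c, r was 0.269, and without animal 84 the pair was not called (limma adjusted p = 0.124), although it was without animals 69 and 84 together (r = 0.385, limma adjusted p = 0.0344). It was also not called with the title-number block (limma adjusted p = 0.055), marker scores (0.0882), normal scores (0.119) or principal components (0.806). Nor was it called in the fit on Cdkn1c without the 2 animals farthest from the Cdkn1c median (limma adjusted p = 0.166), which are not animals 69 and 84. In the blocks the r of Igf2 and Cdkn1c ranged from -0.00556 to 0.575. H19 and Cdkn1c were not called (r = 0.193, permutation p = 0.0649, limma adjusted p = 0.31).

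Peg3 and Grb10, on different chromosomes, gave the second highest r, 0.586 (permutation p = 1e-05), with rho = 0.501 (permutation p = 1e-05) and a limma adjusted p of 1.98e-06. It remained called without animals 69 and 84 (r = 0.474, limma adjusted p = 4.78e-04) and was 0.434 without the 2 animals most distant from the Peg3 median. The sign was positive in 4 of 5 blocks, at up to 0.748, and negative in 1 (-0.247). Grb10 and Plagl1 had r = 0.440 (permutation p = 3e-05), rho = 0.362 (permutation p = 0.00032) and a limma adjusted p of 0.00189, with r = 0.370 (limma adjusted p = 0.0156) without animals 69 and 84 and 0.176 to 0.737 in the blocks. With 7 marker scores as covariates Peg3 and Grb10 stayed called (limma adjusted p = 2.62e-06) and Grb10 and Plagl1 did not (limma adjusted p = 0.392). The same held with the first 3 principal components (limma adjusted p = 1.08e-06 and 0.241).

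Igf2 was also called with 2 genes of other clusters. Igf2 and Peg3 had r = 0.450 (permutation p = 0.00025) but rho = 0.040 (permutation p = 0.702); without animals 69 and 84, which are also the 2 most distant from the Igf2 median, r was 0.00621 and the limma adjusted p moved from 8.21e-04 to 0.98. Igf2 and Meg3 had r = 0.400 (permutation p = 8e-05), rho = 0.240 (permutation p = 0.0215) and a limma adjusted p of 0.0283, and without the same animals r stayed at 0.328 while the adjusted p rose to 0.187. Leaving out animal 84 alone already ended both calls (limma adjusted p = 0.176 with Peg3 and 0.113 with Meg3). With all animals kept, Igf2 and Peg3 stayed called with principal components (limma adjusted p = 5.62e-05) and marker scores (0.0159), but not with normal scores (0.672). Igf2 and Meg3 stayed called with marker scores (limma adjusted p = 0.0184), but not with principal components (0.676) or normal scores (0.105). The lowest r of all pairs was that of Grb10 and Snrpn, -0.273 (permutation p = 0.00842, rho = -0.226), which was not called (limma adjusted p = 0.21). H19 and Meg3, both maternally expressed noncoding RNAs, had an r of 0.0452 (permutation p = 0.669).

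**Figure D3:**
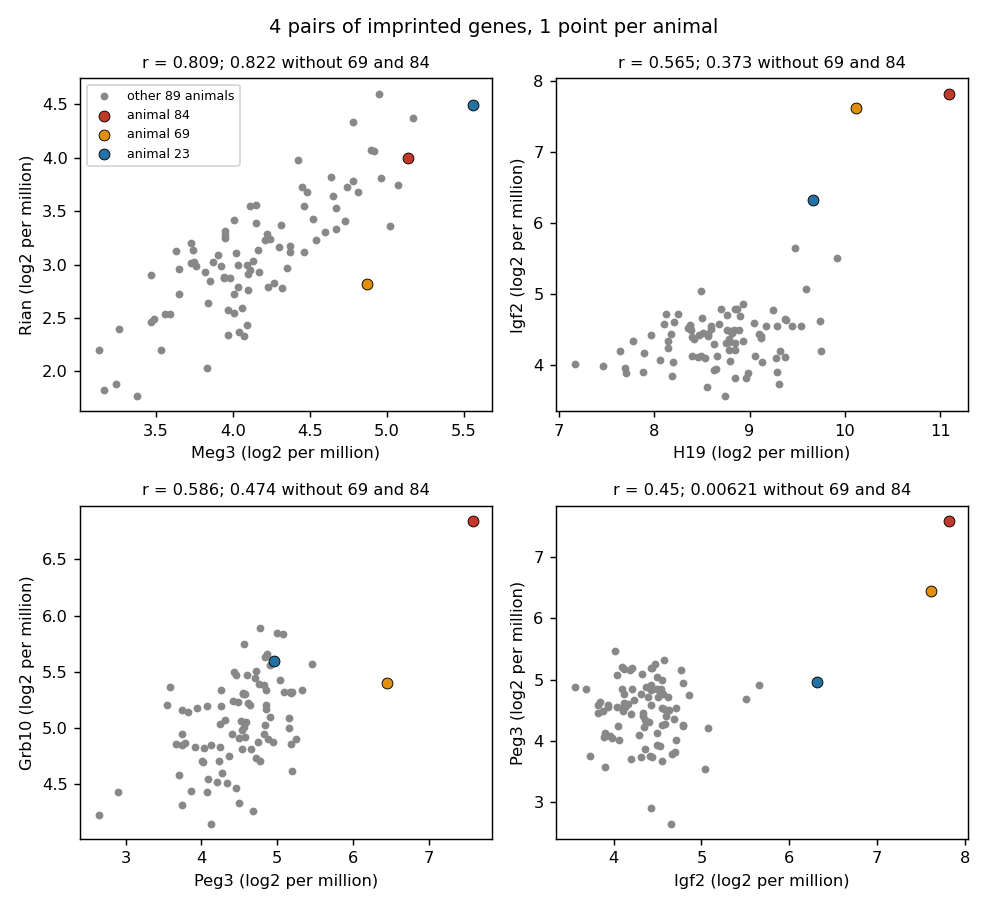
Log2 expression (per-million scale) of 4 pairs of imprinted genes, with 1 point per animal and animals 84, 69 and 23 in colour. Meg3 and Rian fall along a line through the whole range (r = 0.809), whereas the r of 0.450 for Igf2 and Peg3 becomes 0.00621 without animals 69 and 84.

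**Figure D4:**
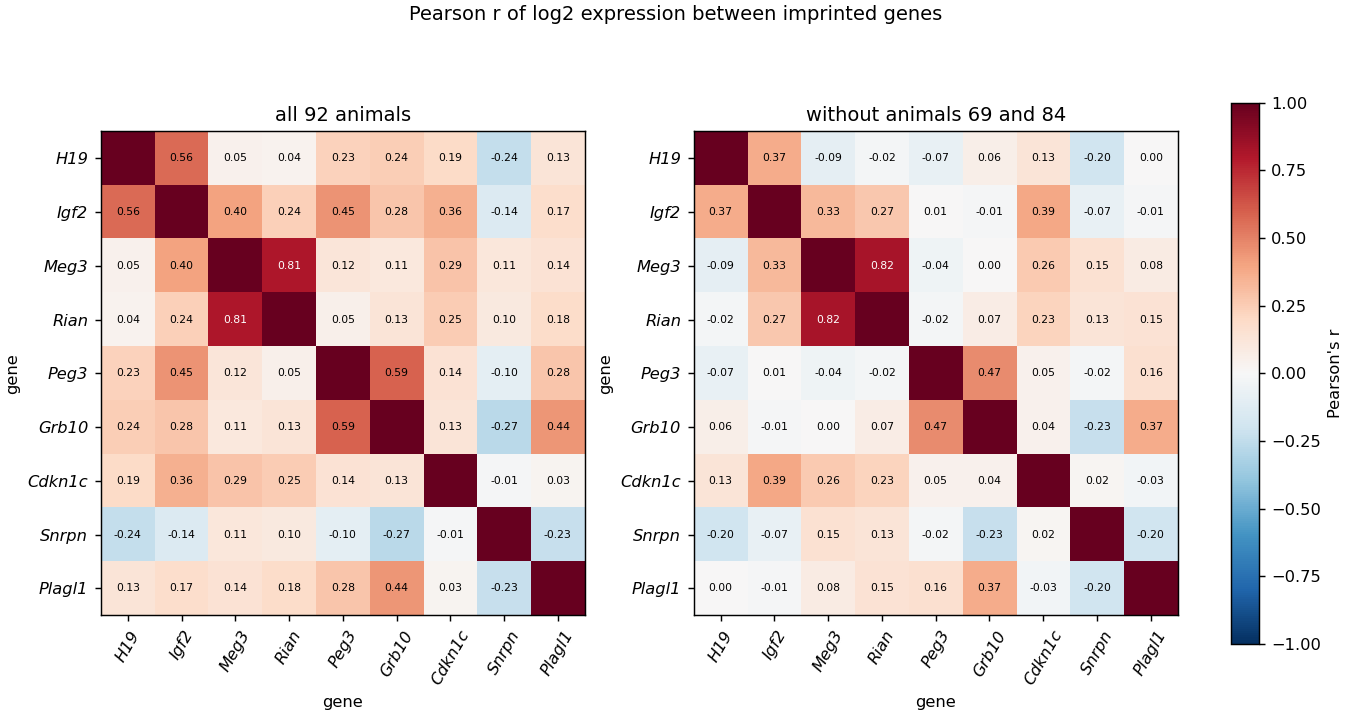
Pearson's r of log2 expression for the 36 pairs, with all 92 animals (left) and with the 90 animals other than 69 and 84 (right), on a colour scale from -1 to 1. The squares of Meg3 and Rian, of Peg3 and Grb10, of Grb10 and Plagl1, of H19 and Igf2 and of Igf2 and Cdkn1c remain visible on the right.

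Genes within 1 megabase of each member were then read in the fit on that member. Both imprinted neighbours of Peg3 rose with it: Zim1, a maternally expressed zinc finger gene 7.44 kilobases away, with r = 0.62 (0.52 without animals 69 and 84) and a slope of 0.39 ± 0.05 log2 units per SD of Peg3 (limma adjusted p = 2.77e-07), and the paternally expressed Usp29, 0.147 kilobases away across the sequence printed above, with r = 0.39 (0.32 without) and a slope of 0.36 ± 0.09 (limma adjusted p = 0.00561). They were the only 2 of 16 neighbours called, in a fit that called 7.2% of all genes. The mean level of Usp29 was low, at -0.46. Animal 84 held the highest Zim1, 4.59 against a median of 2.18. Around Igf2, 11 of 24 neighbours were called, 6 rising and 5 falling, in a fit that called 24.3% of all genes. Without animals 69 and 84 it was 5 of 24, in a fit that called 11.1%. Cd81, a tetraspanin gene of the cluster, rose with Igf2 (r = 0.55, limma adjusted p = 2.26e-06; 0.40 and 0.00478 without the 2 animals), though not with 3 principal components as covariates (limma adjusted p = 0.611), and its r with H19 was 0.19 (limma adjusted p = 0.249). H19 had 3 of 23 neighbours called, against 9.1% of all genes: Igf2 rising, and Dusp8, a phosphatase of MAP kinases, and Prr33 falling (r = -0.44 and -0.37), both not called without animals 69 and 84. Nctc1, a noncoding RNA 16.9 kilobases from H19, had r = 0.04 with it (limma adjusted p = 0.866). Snrpn had 0 of 3 neighbours called by limma and 1 at an unadjusted p under 0.05: Snhg14, the host of the snoRNA clusters 6.74 kilobases away, had r = 0.36 (limma adjusted p = 0.0883), and Ube3a -0.03 (limma adjusted p = 0.923). Grb10 likewise had 0 of 3 called and 1 at an unadjusted p under 0.05, the lowest limma adjusted p being 0.161 for Ikzf1. Meg3 had 1 of 10 neighbours called (Rian), against 0.789% of all genes, Rian 2 of 11, against 0.871%, Cdkn1c 2 of 22, against 1.38%, and Plagl1 2 of 10, against 9.23%. In the 90 animals 1 was left for Cdkn1c, against 0.707% of all genes, and 1 for Plagl1, against 6.01%. Yy1, a zinc finger factor gene, fell with Rian (r = -0.38, limma adjusted p = 0.0361), a call that was lost without animal 84 (limma adjusted p = 0.0799) and with the title-number block (0.0669) and stood in 3 of 9 alternatives. Utrn, which encodes utrophin, rose with Plagl1 (r = 0.40, limma adjusted p = 0.00546), though not with marker scores (limma adjusted p = 0.522) or principal components (0.802) as covariates.

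The genes of the whole table that followed each member differed in number. The fit on Igf2 called 3270 of 13440 genes, that on Plagl1 1240, on H19 1223, on Grb10 1008, on Peg3 968, on Cdkn1c 186, on Rian 65 rising and 52 falling, on Meg3 106 and on Snrpn 1. Without animals 69 and 84 the counts were 1494 for Igf2, 808 for Plagl1, 118 for H19, 940 for Grb10, 1057 for Peg3, 95 for Cdkn1c, 54 for Rian, 3 for Meg3 and 1 for Snrpn. These are 11.1% of all genes for Igf2, 6.01% for Plagl1, 0.878% for H19, 6.99% for Grb10, 7.86% for Peg3, 0.707% for Cdkn1c, 0.402% for Rian, 0.0223% for Meg3 and 0.00744% for Snrpn. Like counts did not mean the same genes: of those called in the 90 animals, 594 for Grb10 and 379 for Peg3 had been called in the same direction with all 92, and for H19 it was 98. All 9 fits share the same animals, so their counts are not independent. Without animal 84 alone the counts were 2501 for Igf2, 577 for Plagl1, 323 for H19, 753 for Grb10, 396 for Peg3, 87 for Cdkn1c, 33 for Rian and 10 for Meg3.

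**Figure D5:**
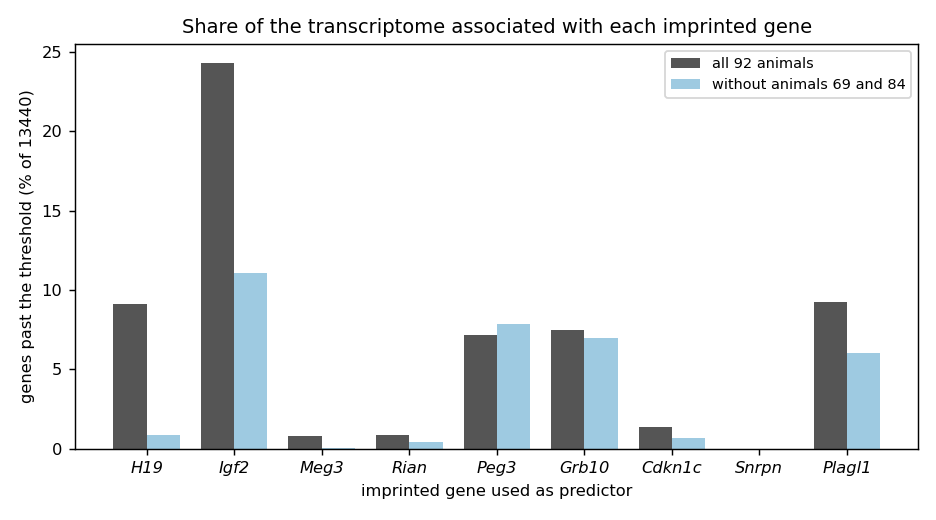
Share of 13440 genes (percent) past a limma adjusted p of 0.05 in the fit on each imprinted gene, with all 92 animals (dark bars) and without animals 69 and 84 (light bars). Igf2 had the highest share in both, and the bar of H19 fell from 9.1% to 0.878%.

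Outside the 9 members, the genes most like each member, the 2 highest and the 2 lowest r among genes with a mean of at least 1, were named by rule. Igf2 went with Tmsb10, a thymosin that binds actin monomers (r = 0.79; 0.52 without animals 69 and 84), and Myl4, the embryonic and atrial myosin light chain (0.76; 0.54), and against Txlnb (-0.71; -0.51) and the kinesin Kif1c (-0.69; -0.47). H19 went with Tmed9, a cargo receptor of the secretory pathway (0.63; 0.54), and Arl6ip5 (0.60; 0.45), and against the transcription factor Vezf1 (-0.62; -0.52) and Myh4 (-0.56; -0.44). All 8 remained called in the 90 animals, and Myh4, the main myosin of these muscles, also fell with Igf2 (-0.56; -0.41). With 3 principal components as covariates Tmsb10, Myl4 and Tmed9 stayed called, while limma gave adjusted p-values of 0.083 for Arl6ip5, 0.0949 for Vezf1, 0.18 for Myh4 on H19, 0.161 for Txlnb and 0.254 for Kif1c, and 0.985 for Myh4 on Igf2, whose slope was then 0.00. Myl4 was highest in animals 84 (5.95) and 69 (4.70), against a highest value of 4.16 in the other 90.

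Meg3 went with the splicing factor Srsf2 (r = 0.47) and Mical1 (0.46) and against the lipid-sensing nuclear receptor Ppard (-0.48), with adjusted p-values by limma of 0.00571, 0.00571 and 0.00474 that each became 0.0581 in the 90 animals, where r was 0.43, 0.42 and -0.43. With 3 principal components the limma adjusted p-values were 0.146, 0.287 and 0.238. Rian went with Col6a3, a chain of collagen VI (r = 0.55, limma adjusted p = 5.26e-05), and Tubb5, a beta tubulin (0.50, limma adjusted p = 0.00139), and against Whamm, an actin nucleation factor (-0.45, limma adjusted p = 0.00809). All 3 genes stayed called in the 90 animals, and Col6a3 did not with marker scores as covariates (limma adjusted p = 0.0543).

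Peg3 went with its neighbour Zim1 and with Itm2a (r = 0.55), a transmembrane protein of muscle and cartilage precursors, and against Actr3b (-0.60), an actin-related protein, and Spns2 (-0.58), a sphingosine-1-phosphate transporter. Itm2a was also the gene most like Grb10 (r = 0.62, slope 0.21 ± 0.03 per SD, limma adjusted p = 5.9e-08; r = 0.54 without animals 69 and 84). Grb10 went further with Bhlhb9 (0.57) and against Mettl21c (-0.68), a lysine methyltransferase of muscle, and Amd1 (-0.66), which makes the substrate for polyamine synthesis. Mettl21c had a slope of -0.53 ± 0.06 log2 units per SD of Grb10 (limma adjusted p = 3.17e-10), and r was -0.63 without the 2 animals. Each of these genes stayed called under all 9 alternative settings.

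Cdkn1c went with Tcf4, a basic helix-loop-helix factor (r = 0.49), and Pck2, the mitochondrial PEP carboxykinase (0.47), and against Slc37a3 (-0.50) and Stim2 (-0.49), a calcium sensor of the endoplasmic reticulum, with limma adjusted p-values from 0.00369 to 0.00426. With marker scores as covariates Slc37a3 stayed called (limma adjusted p = 0.0119), and Tcf4 (0.262), Pck2 (0.129) and Stim2 (0.0882) did not. With 3 principal components as covariates the limma adjusted p-values were 0.0508 for Slc37a3, 0.723 for Tcf4, 0.554 for Pck2 and 0.294 for Stim2. Plagl1 went with Col5a2, a collagen V chain (r = 0.55), and Fam91a1 (0.54) and against Ubac2 (-0.54) and Cib2 (-0.53). These last 4 did not stay called with marker scores as covariates, where limma gave adjusted p-values of 0.608 for Col5a2, 0.44 for Fam91a1, 0.341 for Ubac2 and 0.392 for Cib2. Snrpn had 1 called gene, Phka2, the liver-type phosphorylase kinase subunit (r = -0.50, limma adjusted p = 0.00388; 0.00529 in the 90 animals), while Tmem126a (0.45) and the mitochondrial ribosomal gene Mrpl42 (0.45) had an adjusted p of 0.0573 by limma.

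Of the 42 other imprinted genes in the table, 15 were called with Igf2, 6 rising and 9 falling, in a fit that called 24.3% of all genes, and 5 without animals 69 and 84, against 11.1%. With Grb10 7 were called (5 rising), against 7.5% of all genes, with Peg3 4 (3 rising), against 7.2%, with Plagl1 4 (2 rising), against 9.23%, with H19 2, against 9.1%, with Cdkn1c 2, against 1.38%, and with Meg3 1, against 0.789%. In the 90 animals the counts were 3 for Grb10, against 6.99% of all genes, 2 for Peg3, against 7.86%, and 2 for Plagl1, against 6.01%. For H19, Cdkn1c and Meg3 limma then called 0, against 0.878%, 0.707% and 0.0223% of all genes, with 4, 11 and 7 at an unadjusted p under 0.05. Zdbf2, a paternally expressed zinc finger gene at a low mean level of -0.05, rose with 5 members (r = 0.49 with Igf2, 0.48 with Peg3, 0.41 with Grb10, 0.35 with Cdkn1c and 0.33 with H19). It was called with 0 of the 9 in the 90 animals, where r was 0.26 with Igf2, 0.30 with Peg3, 0.26 with Grb10, 0.30 with Cdkn1c and 0.14 with H19. Mest, a paternally expressed hydrolase-fold gene, rose with 4, of which Igf2 stayed called (r = 0.46, limma adjusted p = 8.24e-05; 0.32 and 0.0247 without the 2 animals). Slc38a4, an amino acid transporter gene, fell with Grb10 (r = -0.48, limma adjusted p = 1.69e-04; -0.39 and 0.00662). Gnas fell with Plagl1 (r = -0.42, limma adjusted p = 0.00443, and -0.41 and 0.0118 without the 2 animals). It was not called with marker scores (limma adjusted p = 0.625) or principal components (0.578) as covariates.

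Of 15 measured genes of the IGF axis, 3 were called with Igf2, against 24.3% of all genes: Igfbp7, an IGF binding protein, rose (r = 0.34), and the insulin receptor Insr (-0.29) and the IGF carrier subunit Igfals (-0.28) fell. Igfals was not called without animals 69 and 84 (limma adjusted p = 0.901). Igf1r, the IGF1 receptor and a partner of the Grb10 protein, rose with Grb10 (r = 0.41, limma adjusted p = 0.00294) and with Peg3 (0.45, limma adjusted p = 8.67e-04), and both held in the 90 animals (limma adjusted p = 0.0196 and 0.0067). With Peg3 3 of 15 were called (Igf1r and Stc2 rising, Igfbp6 falling), against 7.2% of all genes, of which Igfbp6 was not called in the 90 animals (limma adjusted p = 0.0836), and with Grb10 1, against 7.5%. Of 17 listed regulators of imprints, DNA methylation and histone marks, 2 were called with Igf2, Peg3 and Grb10 each, against 24.3%, 7.2% and 7.5% of all genes. With H19, Cdkn1c and Plagl1 it was 1 each, against 9.1%, 1.38% and 9.23%. Zfp445, a zinc finger protein of imprint protection, rose with Peg3 (r = 0.40, limma adjusted p = 0.00509; 0.52 and 1.21e-04 without the 2 animals), and Tet2 and Ezh1 rose with Grb10 (r = 0.41 each). Ehmt2, a histone methyltransferase gene, rose with Igf2 (r = 0.38, limma adjusted p = 0.00243). Ctcf, which binds the control region between H19 and Igf2, fell with Igf2 (r = -0.43, limma adjusted p = 6.15e-04; -0.35 and 0.0181), and its slope on H19 was not called in the 90 animals (limma adjusted p = 0.3). With 3 principal components as covariates the slopes on Igf2 changed sign and were not called by limma for Ehmt2 (-0.01), Ctcf (0.02), Igfbp7 (-0.03) and Insr (0.09), as did that of Ctcf on H19 (0.01).

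Markers of cell types and fibre states moved with several members. With Plagl1, 8 of 8 fibroblast markers rose (median slope 0.19 against -0.00 over all genes; Col3a1 r = 0.46), 8 of 8 macrophage markers rose (median slope 0.23) and 5 of 8 fast glycolytic fibre genes fell (median slope -0.06; Tnnt3 r = -0.44). Without animals 69 and 84 limma called 5, 2 and 3 of these, against 6.01% of all genes. All 8 fibroblast and all 8 macrophage slopes were still above 0 (medians 0.14 and 0.18), each with an unadjusted p under 0.05. With the 7 marker scores as covariates, which include these genes, limma called 0 genes on Plagl1 (1086 at an unadjusted p under 0.05). With Igf2, 5 of 8 fibroblast, 7 of 8 macrophage and 4 of 7 denervation and regeneration genes rose (Ncam1 r = 0.67, Chrna1 0.52, Myog 0.51), which was 2, 0 (2 at an unadjusted p under 0.05) and 1 without animals 69 and 84, against 11.1% of all genes; all 8 macrophage slopes were then still above 0, with a median of 0.08 instead of 0.24. Over all genes 10.5% rose with Igf2 and 13.9% fell, and 4.38% rose with Plagl1 and 4.84% fell. The 2 endothelial (Tek, Kdr) and 2 mural genes (Myh11, Tagln) that fell with Igf2 were not called in the 90 animals, where 2 endothelial and 2 mural genes rose and the slopes of Kdr (0.04), Myh11 (0.01) and Tagln (0.09) had changed sign. Rian rose with 4 of 8 fibroblast markers (Col1a1 r = 0.43, Col1a2 0.41), against 0.484% of all genes rising, and with 2 of 8 without animals 69 and 84, against 0.402% called over all genes. In both fits all 8 slopes were above 0, with medians of 0.17 and 0.15. Limma called 2 of 8 with the title-number block, against 0.469% of all genes, and 0 of 8 with marker scores, against 0.0521% (1 at an unadjusted p under 0.05). With principal components Col1a1 and Col1a2 were not called (limma adjusted p = 0.242 and 0.254).

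H19 and Peg3 each rose with 3 of 7 denervation and regeneration genes (Ncam1, Chrna1 and Myog), against 3.94% and 3.29% of all genes rising. In the 90 animals limma called 0 of 7 for both, against 0.878% of all genes on H19 and 7.86% on Peg3. At an unadjusted p under 0.05 there were 3 for H19 and 0 for Peg3. H19 further rose with 3 of 8 macrophage (Ctss r = 0.48) and 2 of 8 fibroblast markers, while 2 of 8 endothelial and 2 of 8 mural markers fell, against 5.16% of all genes falling. In the 90 animals limma called 0 genes of these 4 lists on H19, against 0.878% of all genes, with 2 macrophage genes at an unadjusted p under 0.05. With Peg3, 2 of 8 endothelial and 2 of 8 mural markers fell, against 3.91% of all genes falling, of which Tagln (r = -0.53) stayed called in the 90 animals (limma adjusted p = 0.0308). H19 also rose with 3 of 8 slow fibre genes (Tnni1 r = 0.43, Tnnt1 0.35, Tnnc1 0.33). In the 90 animals it was again 0 by limma, against 0.878% of all genes (7 at an unadjusted p under 0.05), and the r values were 0.35, 0.34 and 0.31. All 8 slow fibre slopes were above 0 on H19 (median 0.40), and likewise on Grb10 (0.39), Rian (0.31), Cdkn1c (0.30), Meg3 (0.17) and Plagl1 (0.12). Limma called 1 of them on Grb10, against 7.5% of all genes, and 0 on Cdkn1c, against 1.38%, with 7 and 6 at an unadjusted p under 0.05. Grb10 rose with 2 of 7 denervation and regeneration genes (Myog and Ncam1), against 3.06% of all genes rising, but neither was called in the 90 animals (limma adjusted p = 0.207 and 0.871). There limma called 1 of the 7, falling, against 6.99% of all genes, although 6 of the 7 slopes were above 0. It also rose with 2 of 7 satellite cell genes: Pax7 (r = 0.38, limma adjusted p = 0.00699), the defining transcription factor of these muscle stem cells, and Chodl (0.37), which was not called without animals 69 and 84 (limma adjusted p = 0.0738), without animal 84 alone (0.0826) or with marker scores (0.0673). Pax7 stayed called without animals 69 and 84 (limma adjusted p = 0.0464) but not without animal 84 alone (limma adjusted p = 0.0519). Of the 7 satellite cell slopes on Grb10, 4 were above 0, with a median of 0.02. With Snrpn limma called 0 genes in every list, with 6 of 8 fibroblast and 7 of 8 macrophage markers at an unadjusted p under 0.05, and with Meg3 it called 1 fibroblast gene (Col1a1, r = 0.41, limma adjusted p = 0.0223), which was not called without animals 69 and 84 (limma adjusted p = 0.156). The part of cell composition and fibre state in these associations was not tested.

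The numbers in the sample titles fall into 5 blocks separated by gaps, with 33, 14, 21, 11 and 13 animals, whose meaning is not given in the sources used here. An F test over blocks with limma called 2 of 13441 genes (0.0149%) and 0 of 9 members, whose adjusted p-values ran from 0.705 to 0.958; 1120 genes, and 0 members, had an unadjusted p under 0.05. With the number as a continuous term Meg3 and Rian had unadjusted p-values of 0.0131 and 0.0272 and limma adjusted p-values of 0.473 and 0.533. With the block as a covariate 5 of the 7 called pairs were called again, Igf2 with Meg3 and Igf2 with Cdkn1c were not (limma adjusted p = 0.0629 and 0.055), and Igf2 with Grb10 was added (limma adjusted p = 0.0468).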

How the data were processed

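The deposited table holds log2 expression values for 92 quadriceps libraries, 1 column per animal. The submitters' processing notes name bcl2fastq, MultiQC, kallisto 0.50.1, edgeR and mm10, without their roles, and how the authors scaled and filtered the log2 values is not given in the sources used here. Raised from the log2 scale, the values of a library sum to between 898071 and 1140761, so they are read as per-million values. No counts were given, so the depth is unknown, and precision comes from the spread between animals. Of 13456 lines, 15 repeats were removed, leaving 13441 genes, and 0 value columns belonged to no sample.

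For each of the 9 members present, every other gene was regressed on the member's standardised level with limma 3.58.1 (R 4.3.3, empirical Bayes with trend, Benjamini-Hochberg over all genes, adjusted p under 0.05). A slope is log2 units per SD of the member. Tests had this form from the start because there is 1 group. On simulated slopes of 0.5 SD and 0.25 SD, 83 and 15 of 100 changed genes were recovered at these 13441 genes. The simulated noise was normal and independent between genes, so these rates may not hold for correlated genes and outlying animals as here. The SD trend is a lowess curve (span 0.3). Positions and exon lengths are from GENCODE M21 (mm10), and sequences from the RefSeq tables of GRCm38.p6, which gave promoters for 8 of the 10 listed genes.

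Named genes are, for each member, the 2 highest and 2 lowest r among other genes than the members at a mean of at least 1, up to 4 other imprinted genes, up to 3 genes of each marker or pathway list and up to 3 neighbours within 1 megabase, all past the threshold except the first kind, and a few genes named by this rule are not reported here. The members and the 16 lists were chosen with earlier results of these data known. In the other lists, 1 of 8 adipocyte genes on H19 and 4 of 8 on Igf2 fell, 1 of 7 Schwann cell genes on H19, 3 of 7 on Igf2 and 3 of 7 on Peg3 fell, 1 of 6 tendon genes rose on Igf2 and on Plagl1, 1 of 9 long noncoding RNAs fell on H19 (Norad), 2 of 9 were called on Igf2 (Malat1 rising, Norad falling), and 0 of 5 blood genes was called by limma on any member (at most 2 at an unadjusted p under 0.05, on Cdkn1c), against shares of all genes of 9.1% on H19, 24.3% on Igf2, 7.2% on Peg3 and 9.23% on Plagl1. Without animals 69 and 84 limma called 0 of these adipocyte, Schwann cell and tendon genes on the same members (at most 2 of a list at an unadjusted p under 0.05). Of the noncoding RNA calls on H19 and Igf2 that of Norad on Igf2 was left. The shares of all genes were then 0.878% on H19, 11.1% on Igf2, 7.86% on Peg3 and 6.01% on Plagl1. Alternatives were covariates (title-number block, 3 principal components, 7 marker scores), 2 animals left out, a minimum mean of 1, log2(value + 1) and normal scores. Leaving out animals 84 and 69 was added after seeing the data.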

Additional observations from a re-analysis of the deposited data

How the results depend on the processing

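Of 1470 repeats of the slopes of named genes and pairs, 934 kept their direction and side of the threshold, 504 lost the call in the same direction, 4 gained it and 28 changed sign. With the first 3 principal components as covariates the genes called numbered 49 for H19, 365 for Igf2, 3 for Meg3, 15 for Rian, 1648 for Peg3, 1 for Cdkn1c and 0 for Plagl1 (1238 at an unadjusted p under 0.05). With 7 marker scores they numbered 545 for H19, 7 for Rian, 493 for Peg3, 375 for Grb10, 12 for Cdkn1c, 2 for Snrpn and 0 for Plagl1. Without the 2 animals farthest from the member's median they numbered 188 for H19, 1494 for Igf2, 67 for Meg3, 35 for Rian, 64 for Peg3, 5 for Snrpn and 317 for Plagl1. With normal scores they numbered 539 for H19, 7 for Meg3, 31 for Rian, 440 for Peg3, 75 for Cdkn1c and 3 for Snrpn. The title-number block left 17 for Meg3 and 63 for Rian, and a minimum mean of 1 gave 3 for Snrpn. Without animals 69 and 84 they numbered 118 for H19, 1494 for Igf2, 3 for Meg3, 54 for Rian, 95 for Cdkn1c and 808 for Plagl1. Without animal 84 alone they numbered 323 for H19, 10 for Meg3, 33 for Rian, 396 for Peg3, 87 for Cdkn1c and 577 for Plagl1. Called pairs fell from 7 to 4 with principal components, with normal scores, without the 2 farthest animals and without animal 84. Genes differing between title-number blocks numbered 1 with the number as a continuous term and 0 by limma with principal components (776 at an unadjusted p under 0.05). The cause was not tested in any of these.

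Signs changed with principal components for the slopes on H19 of Ctcf (0.01), Col3a1 (-0.01), Kdr (0.01) and C1qa (-0.05), on Igf2 of Ago2 (0.04), Igfbp7 (-0.03), Insr (0.09), Ctcf (0.02), Ehmt2 (-0.01), Col1a1 (-0.07), Cd68 (-0.06), C1qc (-0.11), Myh4 (0.00), Norad (0.00) and Malat1 (-0.03), and on Plagl1 of C1qb (-0.06). Without animals 69 and 84, the 2 farthest for Igf2, they changed on Igf2 for Kdr (0.04), Myh11 (0.01), Tagln (0.09) and Prx (0.02), and with normal scores for the same 4 genes (0.02, 0.01, 0.17 and 0.01). The unknown depth limits what can be said of the weakest gene, Plagl1.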

Other observations

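Some imprinted genes outside the 9 varied as widely. Nnat, a paternally expressed proteolipid gene, ran from -2.20 to 4.77 (median 2.47, SD 1.20, n = 92), and its SD relative to genes of like level was at the percentile 98.5. Pon3, a paraoxonase gene near the Peg10 cluster, ran from 2.95 to 5.76 (median 4.82, SD 0.64). Slc38a4 ran from 5.89 to 7.94 (median 7.18, SD 0.43, percentile 94.5). Gnas, at a mean of 9.84 and an SD of 0.12, was at the percentile 2.43, whereas H19, at a mean of 8.74, was at 98.1.

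Animal 23 also lay at the ends of several members, in part the same as animals 69 and 84. It held the highest Meg3 (5.56) and Cdkn1c (5.07), the second highest Rian (4.49), the third highest Igf2 (6.32) and the lowest Snrpn (5.22), while its distance from the other libraries, 0.70, ranked 10. It had the next value after animals 84 and 69 for Myog (3.25), Myl4 (4.16), Tnnt2 (3.21) and Tmsb10 (5.28). Animal 84 ranked 3 for Meg3 (5.14) and Cdkn1c (4.24) and 89 for Snrpn (5.34).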
